A study of Mus musculus and synthetic construct with 30 samples.

Results

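Transcript levels of 10 genes of the cohesin complex were followed across mouse embryonic stem cells (mESC), embryonic kidney and embryonic forebrain tissue made up of the olfactory bulb with the ganglionic eminence (GE/OB), and between *Peril* knockout (KO) and wild-type (WT) samples of each. The genes were taken by symbol: the ring subunits *Smc1a*, *Smc3* and *Rad21*, the STAG subunits *Stag1*, *Stag2* and *Stag3*, the loader *Nipbl*, the ring-bound regulators *Pds5a* and *Pds5b*, and the DNA-binding protein *Ctcf*. All 10 were found among the 26759 genes quantified, and all 10 passed the filter on low counts that left 17459 genes for testing.

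Cohesin is a ring-shaped complex that encircles DNA. It keeps sister chromatids paired from replication to mitosis, and in interphase it extrudes chromatin loops that often stop where CTCF is bound. SMC1A and SMC3 are closed into a ring by the kleisin RAD21, and each ring carries 1 STAG subunit, which in somatic cells is STAG1 or STAG2 and in meiosis STAG3. NIPBL loads cohesin and drives extrusion, whereas PDS5A and PDS5B bind the loaded ring and take part in its protection and its release.

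The study replaced the body of the lncRNA gene *Peril* with a LacZ reporter (strain Periltm1.1Vlcg, on a C57BL/6J and 129S6 background backcrossed to N3 with C57BL/6J and without the Neo cassette) and sequenced poly(A) RNA from 16 libraries. The mESC groups were 3 WT and 3 KO wells, all male, derived from embryos and grown in 2i medium on feeder fibroblasts. Each genotype was 1 clone (WT4 and KO6), so the wells are not separate animals and p-values between them measure the spread between wells. The authors' sample sheet gives the clones different passage numbers. The kidney groups were 3 WT (2 male, 1 female) and 3 KO (1 male, 2 female) embryos at E14.5 from 1 litter, and the GE/OB groups were 2 WT embryos, both male, and 2 KO embryos, both female, at E14.5 from another litter. In GE/OB the sex of the embryos and their genotype cannot be told apart, which bears on *Smc1a* and *Stag2*, both X-linked. Tissue was also tied to the amount of input RNA and to culture.

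Library totals ran from 17544707 to 45924887 expected counts, of which the 10 genes together took 0.174 to 0.204%. Summed TPM (transcript abundance scaled to the library) of 6 pluripotency markers was 3190 to 3294 in mESC and at most 26.1 elsewhere, 8 nephron and stroma markers summed to 345 to 406 in kidney and at most 6.90 elsewhere, and 10 forebrain interneuron markers summed to 1321 to 1447 in GE/OB and at most 5.63 elsewhere. *LacZ* stood at 143 to 156 CPM (TMM-normalised counts scaled to library size) in KO mESC against at most 0.145 in WT, and at 60.7 and 61.7 CPM in KO GE/OB against 0.141 and 0 in WT. In kidney *LacZ* was 0.165 to 0.309 CPM in KO and 0.204 to 0.993 in WT and *Peril* was at 0 counts in all 6 libraries, so neither gene checks the kidney labels. In the mESC *Peril* itself had 8.13, 17.5 and 11.5 counts in WT and 8.29, 3 and 7.22 in KO.

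The start regions of the members, which show what their promoters share, were read from RefSeq (GRCm38.p6), which held 7 of the 10. *Rad21*, *Nipbl* and *Stag2* are named only. All 7 windows, 250 bases before to 50 after the annotated start, held the E2F-type hexamer TCCCGC on at least 1 strand, as did 6562 of the 32851 mouse promoters in the table. The 7 windows were also rich in CpG, with 23 in *Smc1a* to 55 in *Pds5a* against a median of 7 over all promoters, and in G and C, with 58.3% in *Smc1a* to 80.3% in *Pds5a* against a median of 52.7%. The E-box CACGTG was found in 1 of the 7, *Stag3*, and in 2349 of all promoters, or 7.15%. Both strands were searched, neither motif overlaps the other, and a match in such G- and C-rich sequence is a description of letters only. The windows of the paralogs whose balance differed between tissues are printed below 5′ to 3′ on the gene's own strand, with the motif matches in capitals.

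*Stag1*, chr9:100643198-100643497 on the plus strand: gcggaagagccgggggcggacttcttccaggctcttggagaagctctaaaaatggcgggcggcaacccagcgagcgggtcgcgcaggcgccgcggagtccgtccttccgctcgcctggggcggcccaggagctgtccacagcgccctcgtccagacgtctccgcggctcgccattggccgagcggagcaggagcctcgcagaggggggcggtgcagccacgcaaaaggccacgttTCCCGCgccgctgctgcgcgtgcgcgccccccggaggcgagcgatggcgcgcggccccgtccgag

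*Stag3*, chr5:138280259-138280558 on the plus strand: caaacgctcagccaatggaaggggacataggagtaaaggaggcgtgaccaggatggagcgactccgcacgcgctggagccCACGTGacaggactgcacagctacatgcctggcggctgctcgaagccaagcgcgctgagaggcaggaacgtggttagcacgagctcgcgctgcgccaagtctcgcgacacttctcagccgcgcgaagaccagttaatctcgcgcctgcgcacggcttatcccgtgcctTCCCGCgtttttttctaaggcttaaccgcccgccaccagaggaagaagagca

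*Pds5a*, chr5:65698187-65698486 on the minus strand: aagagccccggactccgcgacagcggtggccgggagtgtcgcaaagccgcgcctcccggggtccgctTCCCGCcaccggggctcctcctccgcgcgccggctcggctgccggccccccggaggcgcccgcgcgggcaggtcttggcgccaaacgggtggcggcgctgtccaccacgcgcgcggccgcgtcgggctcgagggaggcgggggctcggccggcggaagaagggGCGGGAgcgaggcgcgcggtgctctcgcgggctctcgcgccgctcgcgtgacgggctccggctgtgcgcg

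*Pds5b*, chr5:150673577-150673876 on the plus strand: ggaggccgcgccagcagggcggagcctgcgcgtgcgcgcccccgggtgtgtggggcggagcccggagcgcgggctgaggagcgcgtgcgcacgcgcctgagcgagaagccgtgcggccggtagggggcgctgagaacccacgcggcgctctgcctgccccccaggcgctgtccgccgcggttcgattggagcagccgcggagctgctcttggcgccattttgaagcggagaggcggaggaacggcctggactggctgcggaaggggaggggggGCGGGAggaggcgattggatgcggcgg

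For *Stag1* and *Stag3* the whole window lies inside the gene as GENCODE gives it, which begins at positions 100597798 and 138280240. The *Pds5a* and *Pds5b* windows span the GENCODE starts, at 65698273 and 150673739. *Stag3* carried an E-box and an E2F-type match in 1 window. The *Stag1*, *Pds5a* and *Pds5b* windows had the E2F-type hexamer without the E-box.

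To compare the genes with each other, levels were set per length, as TMM-normalised CPM per kilobase of effective transcript length (CPM/kb). *Rad21*, the kleisin, was the most abundant of the 10 in every tissue, and *Stag3*, the meiotic STAG, was the least abundant. *Rad21* had a lowest, median and highest level of 121, 132 and 137 CPM/kb in mESC and 99.9, 107 and 117 in kidney, and of 102, 106 and 115 in GE/OB. Its range was above that of the next gene in each tissue.

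Below *Rad21* the order differed between tissues. In mESC it ran *Smc3* (median 72.5 CPM/kb), *Ctcf* (65.5), *Smc1a* (57.3), *Pds5a* (57.1), *Stag1* (31.1), *Nipbl* (19.4), *Stag2* (18.9), *Pds5b* (17.9) and *Stag3* (8.91). Ranges over the 6 libraries overlapped between *Smc3* and *Ctcf*, between *Smc1a* and *Pds5a*, and among *Nipbl*, *Stag2* and *Pds5b*. In kidney the order was *Stag2* (59.2), *Smc1a* (53.1), *Ctcf* (49.2), *Smc3* (43.2), *Pds5a* (32.5), *Pds5b* (28.6), *Stag1* (26.5), *Nipbl* (15.2) and *Stag3* (1.27). The kidney ranges of *Stag2*, *Smc1a* and *Ctcf* all overlapped each other, and so did those of *Pds5a*, *Pds5b* and *Stag1*. In GE/OB it was *Smc1a* (63.5), *Ctcf* (57.8), *Smc3* (43.5), *Stag2* (37.8), *Pds5a* (31.8), *Pds5b* (26.8), *Stag1* (25.1), *Nipbl* (20.8) and *Stag3* (1.97), with overlaps only between *Pds5b* and *Stag1* and between *Stag1* and *Nipbl*. By its median *Stag2* thus held place 8 of 10 in mESC, place 2 in kidney and place 5 in GE/OB.

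**Figure D1:**
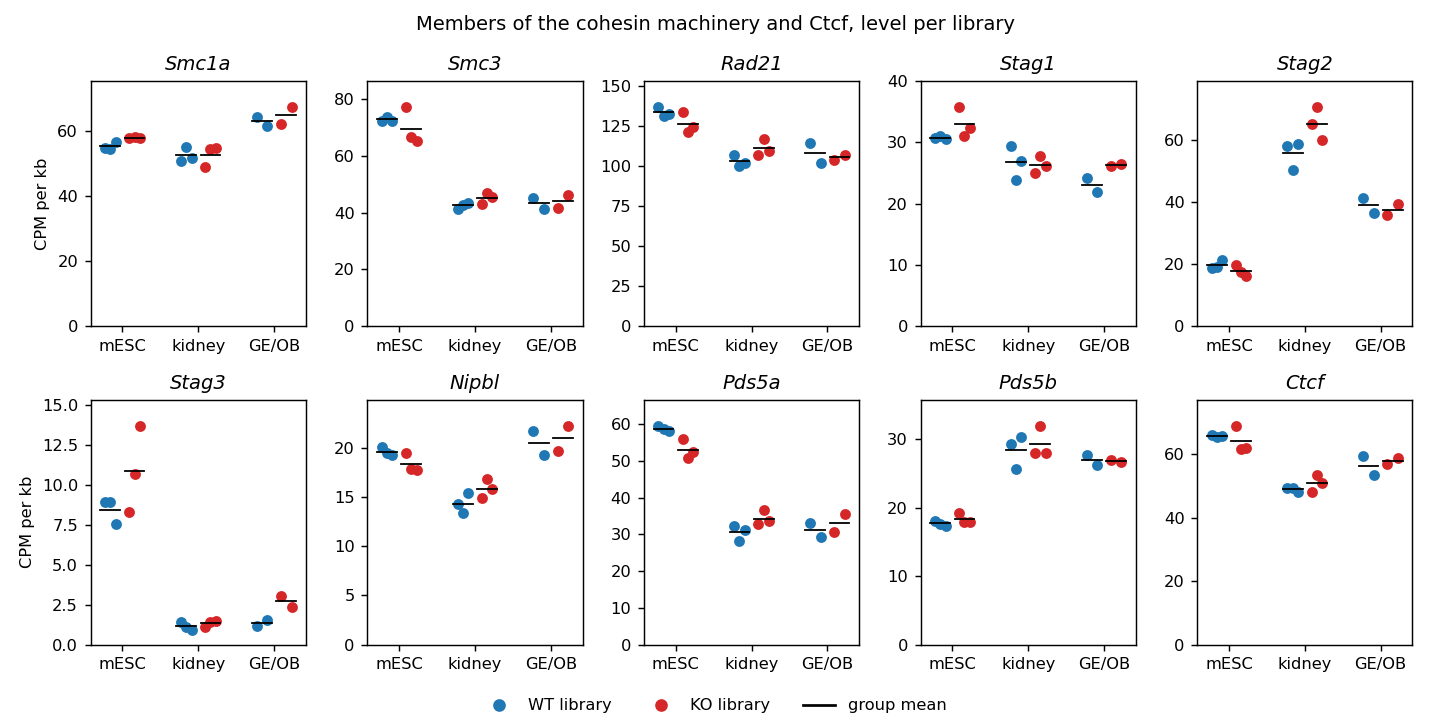
Level of each of the 10 genes in each of the 16 libraries, in CPM per kilobase, by tissue and genotype. Each gene has its own panel and its own linear axis. By the axis values *Rad21* is highest in all 3 tissues, between 99.9 and 137. *Stag3* is lowest, from 7.52 to 13.7 in mESC and from 0.913 to 3.03 in the embryonic tissues.

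The question between tissues was whether the transcripts of the complex stand in the same proportions. Protein was not measured, so the make-up of the complex itself is not shown. *Stag2*, a somatic STAG subunit, and *Pds5b* were higher in kidney and in GE/OB than in mESC, and *Stag3*, *Pds5a*, *Smc3*, *Ctcf* and *Rad21* were lower in both in the edgeR fit. On the TPM scale *Ctcf* and *Rad21* were instead higher in GE/OB than in mESC (0.46 and 0.37 by limma on log2(TPM + 0.1)). In kidney against mESC 8 of the 10 genes passed the edgeR quasi-likelihood test (2 higher, 6 lower), where 88.3% of all genes passed (46.3% higher, 42.0% lower). In GE/OB against mESC 10 passed (4 higher, 6 lower, against 88.7% of all genes with 46.1% higher and 42.6% lower), and in GE/OB against kidney 7 passed (4 higher, 3 lower, against 84.7% of all genes with 41.0% higher and 43.7% lower). The median absolute log2 difference of the members was 0.55, 0.40 and 0.16 in these comparisons, against 1.13, 1.46 and 0.94 over all genes tested, so most members differed between tissues by less than the median gene. Ranges of CPM were apart for 8, 9 and 5 of the 10, against 76.7%, 82.4% and 75.3% of all genes. With WT libraries only, 4 members passed in GE/OB against kidney, where 78.4% of all genes did. These are bulk samples, in which fewer cells of a type and less RNA per cell cannot be told apart.

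The scale matters for the GE/OB comparisons. The median tested gene differed by 0.08 between GE/OB and mESC in the edgeR fit and by 0.65 on the log2 TPM scale, and by -0.05 and 0.52 between GE/OB and kidney, whereas kidney and mESC differed by 0.10 and 0.11. Relative to the median of all genes, the members lay on the same side on both scales for 10 of 10 in kidney against mESC, 10 of 10 in GE/OB against mESC and 9 of 10 in GE/OB against kidney, with *Smc3* the exception. Differences below are from the edgeR fit, and ratios between genes of 1 library do not depend on this scale. That fit counts wells of the same clone and embryos of the same litter as separate samples. Its standard errors and p-values therefore do not measure the spread between clones or litters. CPM of the 4 GE/OB libraries is given in the order KO replicates 2 and 7, WT replicates 1 and 3.

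*Smc1a*, which joins SMC3 at the hinge, had CPM of 227 lowest, 233 median and 242 highest in mESC and 209, 222 and 234 in kidney, and 248, 260, 259 and 243 in the GE/OB libraries. In CPM the GE/OB libraries all lay above the mESC ones, by a small step, and the kidney libraries overlapped the mESC ones. The log2 difference was 0.12 (SE 0.0402) in GE/OB against mESC (edgeR adjusted p = 0.0117) and 0.18 (SE 0.0401) in GE/OB against kidney (adjusted p = 4.82e-04). The first of these no longer passed without WT replicate 1 of GE/OB (0.09, adjusted p = 0.0688) or with sex in the model (0.08, adjusted p = 0.123). In kidney against mESC the difference was -0.06 (adjusted p = 0.101), and with sex in the model -0.10 (adjusted p = 0.0410). On the TPM scale GE/OB (128 to 144) lay further above mESC (71.3 to 81.2), by a limma difference of 0.82.

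*Smc3*, its partner, was set apart from *Smc1a* by mESC. Its CPM was 296 lowest, 332 median and 351 highest in mESC, 191, 197 and 215 in kidney, and 184, 204, 199 and 186 in GE/OB. In CPM all mESC libraries were above all others, and kidney and GE/OB overlapped. The log2 differences from mESC were -0.70 (SE 0.0462) in kidney and -0.75 (SE 0.0527) in GE/OB (edgeR adjusted p = 1.97e-10 and 4.19e-10). Between GE/OB and kidney the difference was -0.05 (adjusted p = 0.370). On the TPM scale the GE/OB libraries (86.0 to 98.7) overlapped those of mESC (91.2 to 102), and by limma the difference was -0.06 (adjusted p = 0.246), while GE/OB was above kidney by 0.60.

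*Rad21* was lower than in mESC by the same amount in both embryonic tissues in the edgeR fit. Its CPM was 413 lowest, 450 median and 466 highest in mESC, 340, 364 and 399 in kidney, and 354, 364, 391 and 347 in GE/OB. In CPM all mESC libraries were above all others. The log2 difference was -0.28 (SE 0.0415) in kidney and -0.28 (SE 0.0467) in GE/OB, with edgeR adjusted p of 6.30e-06 and 2.33e-05. GE/OB and kidney did not differ beyond their spread, with a 95% interval of the log2 difference from -0.10 to 0.10. In TPM the GE/OB libraries (212 to 240) were above mESC (169 to 179) and kidney (133 to 164), with limma differences of 0.37 and 0.60.

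*Stag2* had the largest increase of the 10. Its CPM was 84.2 lowest, 99.8 median and 105 highest in mESC, 237, 261 and 292 in kidney, and 157, 175, 185 and 167 in GE/OB. In CPM the 3 tissues did not overlap, with GE/OB between the others. The log2 difference from mESC was 1.45 (SE 0.0467, edgeR adjusted p = 9.12e-15) in kidney, a 2.73-fold level, and 0.83 (SE 0.0511, adjusted p = 6.10e-11) in GE/OB, a 1.78-fold level. GE/OB was below kidney by a log2 difference of -0.62 (SE 0.0518, adjusted p = 6.56e-09). That call was lost on the TPM scale, where GE/OB (74.8 to 86.4) lay within the range of kidney (67.7 to 98.9) and the limma difference was -0.05 (adjusted p = 0.454).

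*Stag1*, the other somatic STAG, changed little by comparison. Its CPM was 125 lowest, 130 median and 158 highest in mESC, 121, 133 and 145 in kidney, and 122, 120, 121 and 113 in GE/OB. The mESC and kidney libraries lay over each other. The log2 difference was -0.02 (SE 0.0464, adjusted p = 0.633) in kidney and -0.18 (SE 0.0525, edgeR adjusted p = 0.00346) in GE/OB, each against mESC. With WT libraries only the GE/OB difference from mESC was -0.11 (adjusted p = 0.160), and on the TPM scale it turned to 0.28. GE/OB was below kidney by a log2 difference of -0.16 (adjusted p = 0.00928), which was 0.49 on the TPM scale. Its mean transcript length was 4237 to 4609 bases in mESC and 4907 to 5402 in kidney, and a DESeq2 fit with length offsets gave -0.22 for kidney against mESC (adjusted p = 9.42e-05) and -0.11 for GE/OB against kidney (adjusted p = 0.113).

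*Stag3*, the STAG of meiotic cohesin, had CPM of 25.1 lowest, 28.3 median and 36.7 highest in mESC, 2.94, 3.75 and 4.36 in kidney, and 7.10, 5.36, 4.78 and 5.33 in GE/OB. Every mESC library was above every other library, and every GE/OB library was above every kidney library. The log2 difference from mESC was -3.01 (SE 0.102, edgeR adjusted p = 1.96e-14) in kidney and -2.37 (SE 0.117, adjusted p = 2.77e-12) in GE/OB. These are the values with the fewest reads of the 10 genes, down to 73 counts in a library, and the mean transcript length assigned to *Stag3* ran from 2156 to 4298 bases. GE/OB was above kidney by 0.64 (SE 0.124, adjusted p = 1.49e-04), and with WT libraries only by 0.35 (adjusted p = 0.0906).

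**Figure D2:**
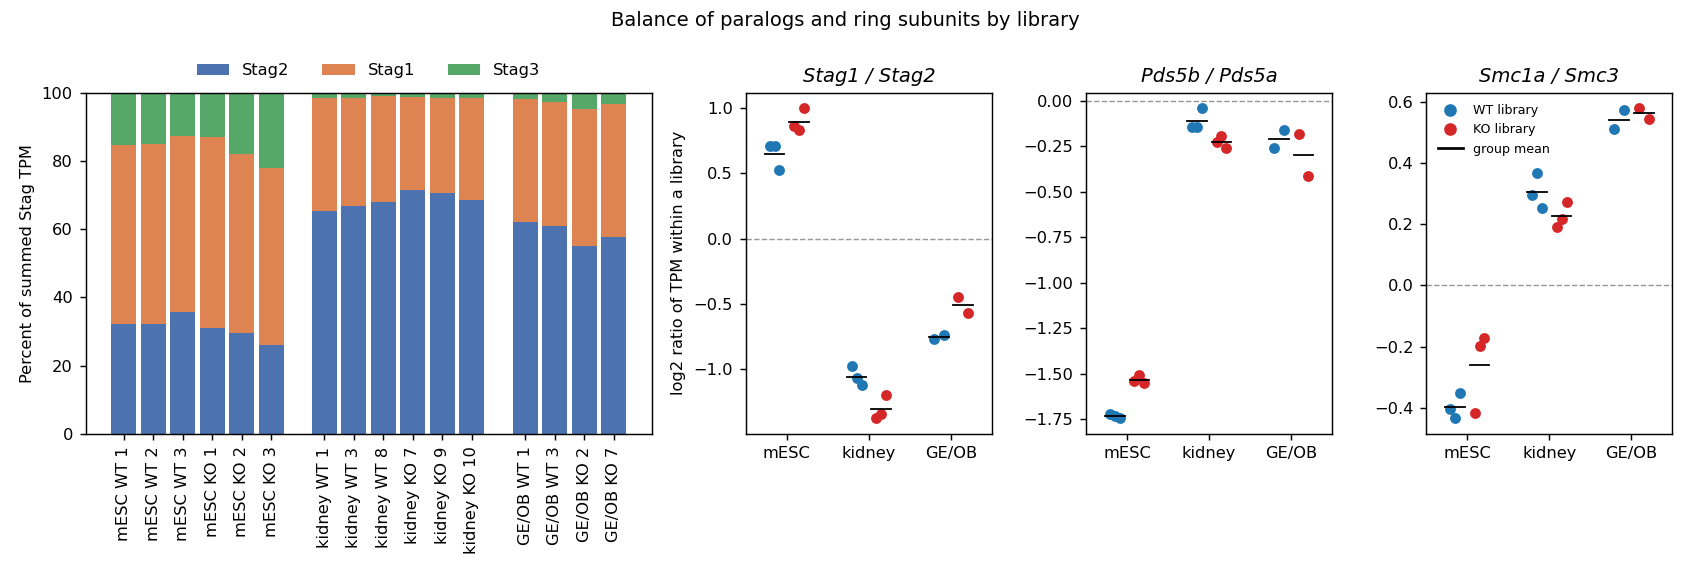
Share of *Stag1*, *Stag2* and *Stag3* in their summed TPM and the other within-library ratios, by library and tissue. *Stag1* holds 51.5 to 56.1% of the sum in mESC, and *Stag2* holds 65.2 to 71.3% in kidney and a mean of 58.9% in GE/OB.

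The balance between the transcripts of the STAG paralogs was reversed between mESC and the embryonic tissues. Of the summed *Stag1*, *Stag2* and *Stag3* TPM, *Stag1* made up 52.9% ± 1.62, *Stag2* 31.1% ± 3.27 and *Stag3* 16% ± 3.5 in mESC (SD, n = 6). In kidney the shares were 30.2% ± 2.23, 68.4% ± 2.31 and 1.41% ± 0.247 (SD, n = 6), and in GE/OB 38.0% ± 1.92, 58.9% ± 3.15 and 3.13% ± 1.25 (SD, n = 4). *Stag1* was thus the main STAG transcript in all 6 mESC libraries and *Stag2* in all 10 others.

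As a log2 ratio, *Stag1* over *Stag2* was 0.77 ± 0.16 in mESC, -1.18 ± 0.16 in kidney and -0.63 ± 0.15 in GE/OB (SD, n = 6, 6 and 4). The 3 tissues did not overlap in this ratio. Its median was 1.71 in mESC, 0.448 in kidney and 0.637 in GE/OB on the linear scale. The differences passed a two-sided exact permutation test for all 3 pairs of tissues (p = 0.00216 for kidney against mESC, the smallest that 6 against 6 libraries can give, and 0.00952 for both others, the smallest for 4 against 6, adjusted p = 0.00974 and 0.0129 over 27 ratio tests). The test counts mESC wells of the same clone and embryos of the same litter as separate samples. Its p-values therefore do not measure the spread between clones or litters. The mean transcript length of *Stag2*, which enters TPM, was 4945 to 5788 bases in mESC and 4602 to 4786 in GE/OB, and its own CPM, which does not use length, was apart between all 3 tissues.

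Summed STAG transcripts also shifted against the ring, taken as the geometric mean of *Smc1a*, *Smc3* and *Rad21* TPM. The log2 ratio was -0.42 ± 0.06 in mESC, 0.49 ± 0.11 in kidney and -0.05 ± 0.04 in GE/OB (SD, n = 6, 6 and 4). All 3 pairs were apart, at the same p-values as above. Kidney thus had a 1.87-fold ratio of STAG to ring transcripts relative to mESC and GE/OB a 1.30-fold ratio.

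*Nipbl*, which loads cohesin with its partner MAU2, had CPM of 154 lowest, 167 median and 173 highest in mESC, 115, 131 and 145 in kidney, and 170, 192, 188 and 167 in GE/OB. Kidney was below both other tissues in every library, and in CPM mESC and GE/OB overlapped. On the TPM scale GE/OB (40.2 to 47.6) was above mESC (24.9 to 26.3), by a limma difference of 0.78. The log2 difference was -0.33 (SE 0.0472, edgeR adjusted p = 4.32e-06) in kidney against mESC and 0.46 (SE 0.0523, adjusted p = 3.40e-07) in GE/OB against kidney. In GE/OB against mESC it was 0.13 (adjusted p = 0.0311), and it no longer passed when any 1 of 6 libraries was left out (WT or KO replicates 2 or 3 of mESC, WT replicate 1 or KO replicate 7 of GE/OB), with adjusted p of 0.0569 to 0.202. Over the ring, *Nipbl* was at a log2 ratio of -2.08 ± 0.04 in mESC, -2.05 ± 0.08 in kidney and -1.69 ± 0.04 in GE/OB (SD, n = 6, 6 and 4), and GE/OB differed from each (exact permutation p = 0.00952, adjusted 0.0129) while kidney and mESC were not separated (adjusted p = 0.479).

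The PDS5 paralogs moved in opposite directions. *Pds5a* had CPM of 201 lowest, 226 median and 235 highest in mESC, 112, 128 and 144 in kidney, and 121, 140, 131 and 116 in GE/OB. *Pds5b* had 119, 121 and 132 in mESC, 170, 194 and 212 in kidney, and 178, 171, 180 and 172 in GE/OB. In CPM mESC was apart from the other tissues for both genes, *Pds5a* on the high side and *Pds5b* on the low side. On the TPM scale *Pds5a* in GE/OB (60.8 to 75.9) overlapped mESC (70.8 to 78.1), with a limma difference of -0.15. The log2 differences from mESC were -0.79 in kidney and -0.80 in GE/OB for *Pds5a* (SE 0.0481 and 0.0550, edgeR adjusted p = 6.41e-11 and 2.97e-10), and 0.66 and 0.51 for *Pds5b* (SE 0.0456 and 0.0506, adjusted p = 3.70e-10 and 4.29e-08). *Pds5b* was also lower in GE/OB than in kidney, by a log2 difference of -0.15 (SE 0.0508, adjusted p = 0.0135), which was -0.10 in the DESeq2 fit with length offsets (adjusted p = 0.109) and turned to 0.50 on the TPM scale.

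The log2 ratio of *Pds5b* to *Pds5a* was -1.63 ± 0.11 in mESC, -0.17 ± 0.08 in kidney and -0.25 ± 0.12 in GE/OB (SD, n = 6, 6 and 4). A transcript ratio of 0.321 at the median in mESC thus stood against 0.890 in kidney and 0.859 in GE/OB. Both embryonic tissues differed from mESC by the exact permutation test (adjusted p = 0.00974 and 0.0129) and were not separated from each other (adjusted p = 0.247). The sum of the PDS5 transcripts over the ring differed far less, at -0.13 ± 0.04, -0.04 ± 0.09 and -0.18 ± 0.02, and 1 of its 3 comparisons passed, GE/OB against kidney (exact permutation p = 0.0381, adjusted 0.0490). That comparison no longer passed when any 1 of the 10 libraries except kidney WT replicate 3 was left out (exact permutation adjusted p = 0.0745 to 0.112), whereas without kidney WT replicate 3 kidney against mESC passed (0.0171) and without mESC KO replicate 2 GE/OB against mESC passed (0.0408).

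*Ctcf*, the zinc finger protein that marks loop anchors, followed the ring closely. Its CPM was 197 lowest, 211 median and 220 highest in mESC, 150, 152 and 165 in kidney, and 171, 174, 176 and 166 in GE/OB. In CPM all mESC libraries were above all others, and every GE/OB library was above every kidney library. The log2 difference from mESC was -0.44 (SE 0.0351, edgeR adjusted p = 3.05e-09) in kidney and -0.28 (SE 0.0395, adjusted p = 3.35e-06) in GE/OB, and GE/OB was above kidney by 0.15 (SE 0.0392, adjusted p = 0.00195). On the TPM scale GE/OB (111 to 126) was above mESC (85.2 to 91.2), by a limma difference of 0.46. Against the ring its log2 ratio was -0.31 ± 0.02 in mESC, -0.33 ± 0.02 in kidney and -0.23 ± 0.03 in GE/OB (SD, n = 6, 6 and 4), the smallest range of tissue means among the 8 log2 ratios. Kidney and mESC were not separated (exact permutation adjusted p = 0.0950, but 0.0457 without mESC KO replicate 2 and 0.0223 without kidney WT replicate 1), and GE/OB was above both (adjusted p = 0.0129). *Ctcf* shares 370 and 114 exon bases with *Gm5914* and *Agrp* on the opposite strand, and these libraries do not mark strand. Its expected count was a whole number in 1 of 16 libraries, whereas that of *Rad21*, *Smc1a*, *Smc3*, *Nipbl*, *Pds5a* and *Pds5b* was whole in all 16, so some *Ctcf* reads were shared out with other genes.

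**Figure D3:**
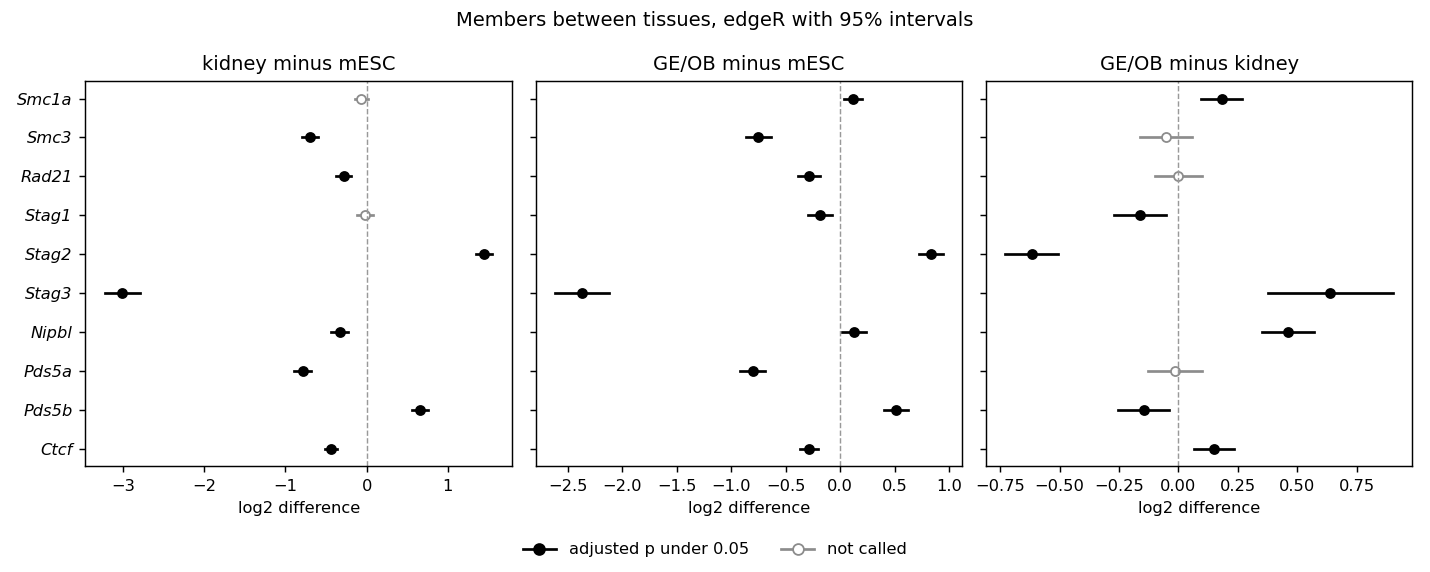
Log2 difference of each of the 10 genes between tissues in the edgeR fit, with 95% intervals, and filled points where the adjusted p was under 0.05. *Stag2* and *Pds5b* lie to the right of 0 and *Stag3*, *Pds5a* and *Smc3* to the left in both comparisons with mESC.

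Among the ring genes the transcript ratio of the SMC pair also differed between tissues. The log2 ratio of *Smc1a* to *Smc3* was -0.33 ± 0.12 in mESC, 0.27 ± 0.06 in kidney and 0.55 ± 0.03 in GE/OB (SD, n = 6, 6 and 4), and all 3 pairs passed the exact permutation test (adjusted p = 0.00974, 0.0129 and 0.0129). *Rad21* over *Smc3* was 0.87 ± 0.05, 1.29 ± 0.06 and 1.29 ± 0.06, with kidney and GE/OB not separated (exact permutation adjusted p = 0.905). In all, 21 of the 27 ratio comparisons between tissues had an adjusted p under 0.05.

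Other genes of the pathway gave the setting. As background to the counts that follow, 46.3% of all genes were called higher and 42.0% lower in kidney than in mESC, 46.1% and 42.6% in GE/OB than in mESC, and 41.0% and 43.7% in GE/OB than in kidney. Of 10 further cohesin regulators, 2 were higher and 8 lower in kidney than in mESC, 2 higher and 8 lower in GE/OB than in mESC, and 1 higher and 8 lower in GE/OB than in kidney, with median log2 differences of -1.48, -1.97 and -0.38 against 0.10, 0.08 and -0.05 over all genes. *Wapl*, which opens the ring to release cohesin from DNA (listed as *Wapal*), was lower than in mESC, at a log2 difference of -1.92 in kidney and -2.17 in GE/OB. *Esco2*, which acetylates SMC3 in S phase, was at -2.31 and -2.75, and *Cdca5*, which encodes sororin, at -1.73 and -2.43. *Pttg1*, the separase inhibitor securin, was at -1.10 in kidney and -3.37 in GE/OB. These counts and differences are from the edgeR fit. In WT the 10 regulators summed to 659 to 670 TPM in mESC, 208 to 239 in kidney and 242 to 276 in GE/OB. On the TPM scale their sum was thus below mESC in both tissues, but GE/OB was not below kidney.

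The regulators that went the other way were *Mau2* and *Hdac8*. *Mau2*, the partner of NIPBL, was higher than in mESC by 0.21 in kidney and 1.15 in GE/OB on the log2 scale, from 13.1 ± 0.411 CPM/kb in WT mESC (SD, n = 3) to 29.2 ± 0.0241 in WT GE/OB (SD, n = 2). *Hdac8*, the deacetylase of SMC3, was higher by 1.08 and 1.10.

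Proliferation genes moved in the same comparisons. Of 10, 2 were higher and 7 lower in kidney than in mESC (42.0% of all genes lower, median -0.63), and 1 was higher and 9 lower in GE/OB (42.6% lower, median -1.04). *Mcm5* and *Mcm2*, subunits of the replicative helicase, were at -1.26 and -1.35 in kidney and -2.37 and -2.10 in GE/OB. The mitotic genes *Ccnb1* and *Bub1* were at -1.25 and -0.78 in kidney and -1.71 and -1.62 in GE/OB. Whether the proportion of dividing cells had a part in the levels of the 10 members was not tested.

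Condensin and SMC5/6 genes, which build the related chromosome complexes, were mostly lower outside mESC in the edgeR fit. Of 10, 1 was higher and 8 lower in kidney (42.0% of all genes lower, median -0.29), 0 were higher and 8 lower in GE/OB against mESC (42.6% lower, median -0.60), and 2 were higher and 7 lower in GE/OB against kidney (43.7% lower, median -0.33). In GE/OB against mESC *Ncapg* was at -0.95 and *Smc2* at -0.88, and in kidney against mESC *Ncapd3* was at -0.74 and *Ncapd2* at -0.72 on the log2 scale.

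Of 7 other factors tied to looping, 1 was higher and 6 lower in kidney than in mESC (42.0% of all genes lower, median -0.32), 4 were higher and 3 lower in GE/OB than in mESC (46.1% higher, median 0.19), and 5 were higher and 1 lower in GE/OB than in kidney (41.0% higher, median 0.35). *Yy1*, a zinc finger factor at enhancer-promoter contacts, was lower than in mESC, at -0.32 in kidney and -0.54 in GE/OB on the log2 scale. *Zfp143* was at -0.56 in kidney, and *Ldb1*, a dimerising adaptor of enhancer complexes, was higher by 0.73 in GE/OB than in kidney.

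The meiotic counterparts of the members and other germline genes were followed because *Stag3* belongs to meiotic cohesin. Of 12 such genes 9 passed the low-count filter, several of them through their counts in mESC alone, so they are described by counts and not tallied. *Hormad1*, of the meiotic chromosome axis, had 189 to 577 counts per library in mESC, 0 to 1 in kidney and 0 in GE/OB. *Dazl*, a germ cell RNA-binding protein, had 112 to 311 counts in mESC and 0 to 8 in kidney. *Mael* had 15 to 125 counts in mESC and at most 2 elsewhere, and *Sycp1*, of the synaptonemal complex, 13 to 49 and at most 3.

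Of the meiotic cohesin paralogs proper, *Smc1b* had 32 to 110 counts in mESC, 13 to 26 in kidney and 3 to 8 in GE/OB. *Rec8*, the meiotic kleisin, had 178 to 368 counts in mESC, 15 to 930 in kidney and 11 to 113 in GE/OB. Its log2 difference from mESC was 0.51 in kidney (edgeR adjusted p = 0.345) and -1.91 in GE/OB (SE 0.690, adjusted p = 0.0158). *Rec8* spread widely in both embryonic tissues. In TPM it ran from 0.71 to 9.53 in GE/OB and from 6.52 to 9.40 in mESC, so these ranges overlapped, unlike those of *Stag3*. *Rad21l* had 0 to 4 counts in every library and was not tested. *Ctcfl*, the germline paralog of *Ctcf*, had 17.0 to 49.6 counts in mESC, 0.51 to 8.30 in kidney and 3.69 to 9.21 in GE/OB.

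**Figure D4:**
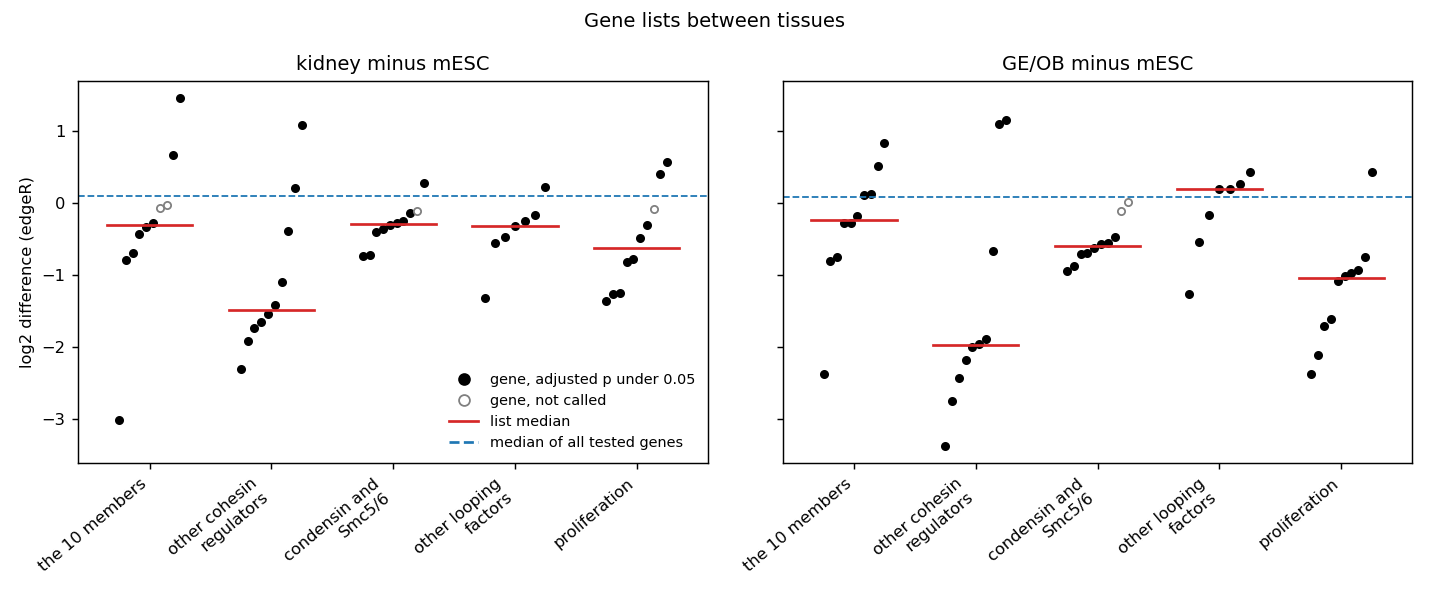
Log2 differences between tissues of the members and of 4 related gene lists in the edgeR fit, 1 point a gene, with the median of each list. The medians of the cohesin regulators lie at -1.48 for kidney and -1.97 for GE/OB against mESC, below those of the members at -0.31 and -0.23.

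The genes whose pattern over the 6 groups was most like that of a member were found by the root mean square difference of centred mean log2(TPM + 0.1). For *Ctcf* they were *Ube2q1* (0.0218), *Ccar1* (0.0220) and *Cdk5rap2* (0.0265), and for *Rad21* they were *Bri3bp* (0.0262), *Chm* (0.0294) and *Srsf10* (0.0295). For *Stag3* the nearest were *Gm12867* (0.124), *Bglap3* (0.194) and *Gm17644* (0.207), a looser match.

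The knockout comparison asked whether loss of the *Peril* gene body altered the cohesin genes. In no tissue did any of the 10 pass the edgeR test at an adjusted p under 0.05, where 6.86% of all genes did in mESC, 0.223% in kidney and 0.063% in GE/OB. At an unadjusted p under 0.05 there were 3 members in mESC, 3 in kidney and 0 in GE/OB, against 21.2%, 7.6% and 3.01% of all genes. The median log2 difference of the members was -0.06 in mESC, 0.07 in kidney and 0.02 in GE/OB, against -0.03, 0 and 0.02 over all genes. Leaving out *Stag3*, the 95% intervals of the other 9 members together spanned -0.34 to 0.33 in mESC, -0.10 to 0.31 in kidney and -0.25 to 0.26 in GE/OB.

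**Figure D5:**
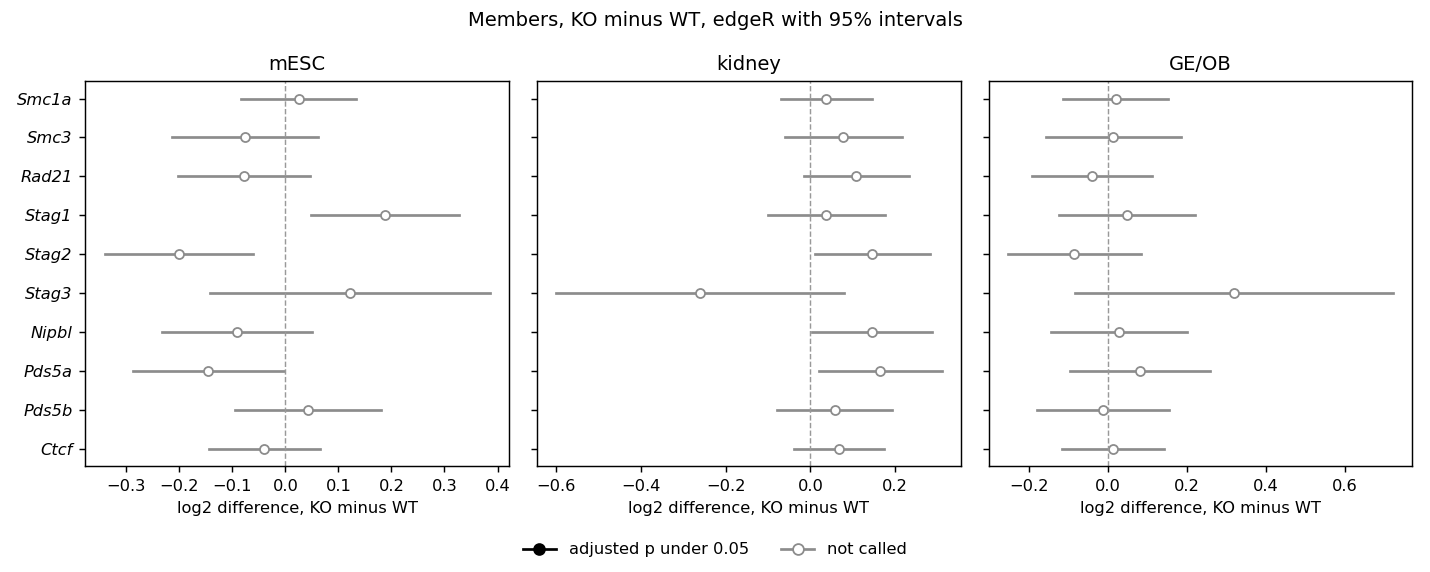
Log2 difference between KO and WT for each of the 10 genes in each tissue, with 95% intervals from the edgeR fit. No point has an adjusted p under 0.05, the horizontal axes differ between panels, and *Stag3*, with the fewest counts, has the widest interval in every tissue.

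In mESC the members nearest the threshold were the STAG paralogs and *Pds5a*. *Stag2* had CPM of 105, 103 and 101 in WT and 98.3, 85.8 and 84.2 in KO, *Stag1* had 127, 125 and 127 in WT and 158, 133 and 141 in KO, and *Pds5a* had 235, 231 and 230 in WT and 222, 201 and 208 in KO. KO libraries were all below WT for *Stag2* and *Pds5a* and all above for *Stag1*. Of the 10 members 3 had such groups without overlap, against 33.7% of all genes. The log2 differences were -0.20 (SE 0.0661, edgeR adjusted p = 0.0816), 0.19 (SE 0.0658, adjusted p = 0.102) and -0.15 (SE 0.0673, adjusted p = 0.226).

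These 3 calls depended on the samples fitted. With mESC libraries fitted alone all 3 passed (edgeR adjusted p = 0.0203 for *Stag2*, 0.00126 for *Stag1* and 0.0416 for *Pds5a*), in a fit that called 25.2% of all genes. By DESeq2 *Stag1* passed (adjusted p = 0.0459, 9.42% of all genes called), and without KO replicate 1 of mESC *Stag2* passed (-0.28, adjusted p = 0.0178, 8.25% called). The fit of mESC libraries with the replicate number as a block called 28.5% of all genes and the same 3 members. Summed TPM of 8 feeder fibroblast markers was 2.69 to 3.05 in WT and 1.41 to 1.68 in KO mESC. These sums are low, beside 911 to 1569 in WT kidney. Of the 8 markers 3 were called lower in the fit of all 16 libraries, where 6.86% of all genes were called. The part of feeder cells and of passage in the differences of *Stag1*, *Stag2* and *Pds5a* was not tested.

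In kidney *Stag2* and *Pds5a* leaned the other way. *Stag2* had CPM of 257, 237 and 254 in WT and 266, 292 and 270 in KO, and *Pds5a* had 128, 112 and 123 in WT and 129, 144 and 132 in KO. The KO libraries were all above WT for both genes, by a narrow gap for *Pds5a*, and 2 of 10 members had no overlap, against 10.2% of all genes. The log2 differences were 0.15 (SE 0.0639, edgeR adjusted p = 0.615) and 0.17 (SE 0.0680, adjusted p = 0.570), and that of *Nipbl* was 0.15 (SE 0.0668, adjusted p = 0.645). Skeletal muscle markers summed to 29.6 to 47.4 TPM in WT and 6.99 to 15.3 in KO kidney. Of these 6 genes 4 were called lower, where 0.223% of all genes were called. Blood markers summed to 1979 to 3696 TPM in WT and 1483 to 2319 in KO kidney. Of these 5 genes 0 were called, and 4 had an unadjusted edgeR p under 0.05, against 7.6% of all genes. The part of muscle and blood in the values of the members was not tested.

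In GE/OB *Stag3* alone had no overlap (1 of 10 members, against 27.3% of all genes). It had CPM of 4.78 and 5.33 in WT and 7.10 and 5.36 in KO, so that 1 KO library lay beside the WT ones. The log2 difference was 0.32 (SE 0.190, edgeR adjusted p = 1.00). With sex in the model *Stag2* was at -0.07 and *Smc1a* at -0.05, each with an adjusted p of 1.00. That sex term was estimated from the kidney libraries alone, so it does not separate sex from genotype in GE/OB.

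The effect of the KO was also compared between tissues. No member passed the interaction test for mESC against kidney, mESC against GE/OB or kidney against GE/OB, where edgeR called 2.24%, 1.08% and 0.0344% of all genes, and 4, 0 and 2 members had an unadjusted p under 0.05, against 15.5%, 10.6% and 4.23% of all genes. *Stag2* came nearest, with a difference of -0.35 between its KO effects in mESC and in kidney (SE 0.0919, edgeR adjusted p = 0.0638). By DESeq2 it was -0.34 (adjusted p = 0.0249, 4.03% of all genes called), and without KO replicate 1 of mESC -0.42 (edgeR adjusted p = 0.0166, 2.63% called).

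The balance of subunit transcripts was tested within each tissue as well, and 0 of 27 ratio comparisons between KO and WT passed. With 3 against 3 libraries the exact permutation test cannot go below p = 0.1, and with 2 against 2 not below 0.333. The log2 ratio of *Stag1* to *Stag2* was 0.65 ± 0.11 in WT and 0.90 ± 0.09 in KO mESC (SD, n = 3 and 3, exact permutation p = 0.1, adjusted 0.386). In kidney it was -1.06 ± 0.07 in WT and -1.30 ± 0.10 in KO (SD, n = 3 and 3, exact permutation p = 0.1, adjusted 0.386). The ratio of *Ctcf* to the ring differed between genotypes by -0.01 in mESC, -0.01 in kidney and 0.03 in GE/OB on the log2 scale (exact permutation adjusted p = 0.788 in each).

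Among the lists of pathway, proliferation and germline genes, 3 genes passed the KO test, all in mESC, where 6.86% of all genes did, against 0.223% in kidney and 0.063% in GE/OB. *Sgo2a* (listed as *Sgol2*), a shugoshin that guards centromeric cohesin, fell by 0.30 on the log2 scale (SE 0.0626, edgeR adjusted p = 0.00689), and *Esco2* fell by 0.24 (SE 0.0696, adjusted p = 0.0466), 2 of 10 cohesin regulators. *Top2a*, of the proliferation list, fell by 0.30 (SE 0.0804, adjusted p = 0.0329), 1 of 10. Of these, *Sgo2a* also passed the interaction test of mESC against kidney (-0.44, SE 0.0905, adjusted p = 0.0167), as did *Yy1* (-0.31, SE 0.0699, adjusted p = 0.0287). *Wapl* was at -0.08 in mESC, 0.09 in kidney and 0.06 in GE/OB, and *Smc1b* at -0.61 in mESC (edgeR adjusted p = 0.0571).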

How the data were processed

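Poly(A) RNA of 16 libraries in 6 groups (mESC, kidney and GE/OB, WT and KO) was measured, with groups taken from the sample titles. The authors made unstranded TruSeq libraries, mapped them on mm10 and ran RSEM over 26759 genes (GENCODE vM2, added lncRNAs and LacZ). The deposited expected counts share out reads that match more than 1 gene and were rounded before fitting. TPM values are the authors' RSEM estimates and were used for ratios between genes of a library and for summed markers. Counts taken from a gene and from an overlapping gene on the opposite strand cannot be told apart.

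edgeR 4.0.16 (R 4.3.3) was run with TMM factors, filterByExpr by group, 1 coefficient per group over all 16 libraries and the quasi-likelihood test, and 17459 genes were tested. Adjustment followed Benjamini and Hochberg across every tested gene, with calls at 0.05. Tissue comparisons average WT and KO coefficients, and interaction contrasts compare KO effects. Standard errors (SE) were derived from the log2 difference and its F statistic. CPM/kb divides TMM-normalised CPM by effective length. Ratios were compared by two-sided exact permutation tests (scipy 1.17.1), adjusted over 27 tests between tissues and 27 between genotypes. The scripts were tested on simulated data. Promoters are from RefSeq tables and positions of overlapping exons from GENCODE vM21.

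The members and lists were chosen with earlier results of these data known. Text names all members, up to 4 genes a list by the smallest adjusted p for KO and up to 4 by the largest called tissue difference, *Wapl*, *Mau2*, *Rec8*, *Smc1b*, *Rad21l* and *Ctcfl*, and the 3 nearest patterns of *Ctcf*, *Rad21* and *Stag3*. *Hdac8* and the interaction call of *Yy1* were named after their values were seen. Alternatives were DESeq2 1.42.0 with and without length offsets, limma 3.58.1 on log2(TPM + 0.1), other filters and scalings, sex as a covariate, each tissue alone, each genotype alone, the replicate block and leaving out each library. The limma alternative was added after seeing the data. The sex term rests on the kidney libraries, where alone both sexes occur within a genotype. The precision of a call is set by 2 to 3 libraries a group. 1 gene that the naming rule picks is not reported here. The MPRA and Hi-C files were not used here.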

Additional observations from a re-analysis of the deposited data

Results flagged for a closer look

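*Stag3* in mESC had 1 library far from the others. KO replicate 3 had 36.65 CPM where the 6 mESC libraries ran from 25.1 to 36.7 with a median of 28.3, a gap to the nearest library of 0.629 of the whole range against a critical value of 0.625. Of 57 such groups of libraries 1 was marked this way, and chance marks about 1 in 20.

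Some transcript ratios had every KO library on one side of the WT libraries in 1 tissue and on the other side in another, and the difference between the tissues was not tested for these ratios. For log2 *Stag1* over *Stag2*, KO minus WT was 0.25 in mESC, -0.25 in kidney and 0.25 in GE/OB, so that mESC minus kidney was 0.49 and kidney minus GE/OB was -0.49. These TPM ratios include the estimated transcript length, which for *Stag1* in GE/OB was 5203 and 5338 bases in WT and 4883 and 4716 in KO. On edgeR counts, which do not use length, *Stag1* and *Stag2* were at 0.19 and -0.20 in mESC, 0.04 and 0.15 in kidney, and 0.05 and -0.09 in GE/OB, so the shift between them was smaller in kidney and GE/OB and larger in mESC than in the TPM ratio. For log2 *Pds5b* over *Pds5a* it was 0.20 in mESC and -0.12 in kidney, a difference of 0.32, where the edgeR log2 differences of *Pds5b* and *Pds5a* were 0.04 and -0.15 in mESC and 0.06 and 0.17 in kidney. For the log2 ratio of summed PDS5 transcripts over the ring it was -0.07 in mESC and 0.04 in GE/OB, a difference of -0.11.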

How the results depend on the processing

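The count of members called in the KO comparison of mESC, 0, was 3 with mESC libraries fitted alone, 3 with the replicate block on mESC libraries alone, 1 by DESeq2 and 0 to 1 when a library was left out, with the 1 being *Stag2* without KO replicate 1. The count for the KO effect in mESC minus kidney, 0, was 1 by DESeq2 and 0 to 1 when a library was left out. In GE/OB against kidney 7 members were called, and 4 with WT libraries only. The 21 ratio comparisons between tissues were 0 with WT libraries only, where so few libraries cannot pass, and 20 to 23 when a library was left out. Counts in the other comparisons stayed within 1.5 times under the alternatives run.

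On log2(TPM + 0.1) with limma, where the median gene lies higher in GE/OB, some differences reversed. In GE/OB against mESC *Ctcf* was at 0.46, *Rad21* at 0.37 and *Stag1* at 0.28. In GE/OB against kidney *Rad21* was at 0.60, *Smc3* at 0.60, *Pds5a* at 0.59, *Pds5b* at 0.50 and *Stag1* at 0.49. Calls were lost for *Smc3* in GE/OB against mESC (-0.06, adjusted p = 0.246) and for *Stag2* in GE/OB against kidney (-0.05, adjusted p = 0.454).

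Over all genes, the KO comparison of mESC called 1198, but 530 at an adjusted p under 0.01, 596 to 634 without 1 of 5 libraries, 3561 with mESC fitted alone and 4027 with the block. In kidney 39 became 23 at the stricter threshold, 77 without WT replicate 1, 20 without KO replicate 10, 10 with kidney alone and 76 by DESeq2. In GE/OB 11 became 4 at the stricter threshold, 2 to 7 without a library, 6 with GE/OB alone, 19 by DESeq2 and 28 by limma. The interaction counts of 391, 188 and 6 became 704, 349 and 16 by DESeq2. At an adjusted p under 0.01 the mESC interactions numbered 157 and 77, with sex as a covariate the count for mESC minus GE/OB was 67, and by limma that for kidney minus GE/OB was 21.

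Replicate numbers did not pair the mESC wells, since deviations of WT and KO wells with the same number correlated at 0.00553, 0.0160 and 0.0452 over genes. With that block *Stag1* was at 0.23, *Stag2* at -0.16 and *Pds5a* at -0.11 (edgeR adjusted p = 9.71e-05, 0.00287 and 0.0265). Depth limits *Stag3* most, with 73 to 977 counts a library, against at least 1406 for every other member.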
